A study of Mus musculus with 11 samples.

Results

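Calcium/calmodulin-dependent kinases (CaM kinases) were described here through 9 of the 48709 genes in the count table. They are the genes of the CaMKII subunits (Camk2a, Camk2b, Camk2d and Camk2g), of CaMKI and CaMKIV (Camk1, Camk1d and Camk4) and of the kinases that switch the latter on (Camkk1 and Camkk2). They were picked by symbol through their Ensembl IDs, with earlier results of these counts known, so each value given for them is a description and not independent evidence. All 9 passed the filter on low counts. In muscle stem cells kept for an added 2 h at 37°C, Camk2b stood at 159.7 ± 5.08 CPM (reads of the gene per 1000000 counted; SD, n = 2), against 12.8 ± 1.401 (n = 4) in cells isolated without that time, 12.5-fold higher. Camkk2 was 2.86-fold higher, and Camk2g and Camk1 were 1.93-fold and 2.12-fold lower, in isolated cells than in cells fixed inside the muscle.

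The study compared muscle stem cells (satellite cells, the Pax7-positive cells that rebuild muscle fibres) of C57BL/6 mice carrying the Tg:Pax7-nGFP transgene, a nuclear GFP reporter, taken from pectoral, forelimb and hindlimb muscle. T0 cells (3 libraries) were fixed while still in the muscle, in 0.5% paraformaldehyde for 1 h at 4°C. T3 cells (4 libraries) went through the usual isolation by flow cytometry and were then fixed in 0.5% paraformaldehyde for 30 min on ice. T5 cells (4 libraries) had 2 h more at 37°C and were then fixed as T3 was; the treatment protocol places those 2 h on the dissected muscle in DMEM, before the isolation, and the series description places them after it, so the point at which the T5 cells were warmed is not settled. All cells of the 3 groups carried the reporter, and neither age, sex, nor the number of animals behind a library is given in the sources used here. No label says that replicates came from separate animals, so a p-value here weighs a difference against the spread of these libraries alone, which may be technical. T5 libraries that share a letter were added up, leaving replicates A and B.

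In these kinases calcium acts through calmodulin, a small protein that changes shape when it binds calcium and then lifts the block that each kinase places on its own active site. CaMKII assembles from subunits of its 4 genes into large rings that can hold different subunits together and can stay active after calcium has fallen, through phosphorylation of their neighbours. CaMKI and CaMKIV are single chains that reach full activity when a CaM kinase kinase phosphorylates them. In muscle, CaM kinases are known for carrying calcium signals to gene expression, among other routes by phosphorylating class II histone deacetylases, which releases MEF2 factors.

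Libraries of T0 held 49078859 to 67251946 counts, those of T3 52632553 to 72638711 and those of T5 61837170 to 102347035. On the first principal component of log2 CPM, which held 57.9% of the variance, T0 replicates 1, 2 and 3 lay at -158, -121 and -80.4 and the T3 and T5 replicates between 50.7 and 69.5. Intronic reads and reads of either strand were counted: of 676 genes that lie in an intron of a gene on the other strand, the host gene had at least as high a count for 674 (99.7%). Genes that overlap another gene are therefore uncertain. Pax7 itself, the defining marker, was at 3137 to 4440 CPM in T0 but at 249 to 399.9 CPM in the T3 replicates and 306 to 325 CPM in those of T5. Myf5, also a marker of these cells, was at 89.0 to 139, 93.2 to 113 and 42.9 to 45.3 CPM.

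Both members that stood higher outside the muscle have a promoter rich in CpG, the dinucleotide at which DNA is methylated. The 250 bases upstream of the RefSeq start (GRCm38.p6) are given for these members, 5′ to 3′ on the strand of the gene and with each CpG in capitals; they hold no GENCODE exon of the gene itself, and that of Camkk2 overlaps an exon of the predicted gene Gm43684 on the other strand. For Camk2b they are chr11:6065749-6065998 (minus strand), and for Camkk2 chr5:122779411-122779660 (minus strand). The Camk2b stretch lies inside the gene body that GENCODE gives (chr11:5969644-6066362), so it is not upstream of the outermost start there.
Camk2b: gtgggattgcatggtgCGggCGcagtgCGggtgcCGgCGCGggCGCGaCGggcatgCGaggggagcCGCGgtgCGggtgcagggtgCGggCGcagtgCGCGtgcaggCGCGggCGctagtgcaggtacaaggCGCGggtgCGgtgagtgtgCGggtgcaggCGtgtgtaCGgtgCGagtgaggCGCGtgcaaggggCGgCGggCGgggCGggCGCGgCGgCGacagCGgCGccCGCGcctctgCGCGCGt
Camkk2: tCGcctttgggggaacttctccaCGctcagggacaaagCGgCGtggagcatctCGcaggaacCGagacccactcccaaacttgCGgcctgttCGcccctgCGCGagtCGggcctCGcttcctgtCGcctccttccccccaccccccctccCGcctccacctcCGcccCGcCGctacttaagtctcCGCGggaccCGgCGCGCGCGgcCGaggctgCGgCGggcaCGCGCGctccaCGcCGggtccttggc
The Camk2b stretch is 78.4% G or C and holds 44 CpG, a number reached or passed by 0.539% of 32851 RefSeq promoter stretches of this length. The Camkk2 stretch is 72.4% G or C and holds 32 CpG, reached or passed by 4.58% of them. High numbers were not limited to these: the Camkk1 stretch holds 29 (reached or passed by 6.78%), that of Camk2d 23 (13.3%) and the upstream Camk1d start 22 (14.8%). The Camk1 stretch holds 11 (35.6%) and that of the other Camk1d start 5 (55.6%). Motifs were searched on both strands in the stretches of 6 members (Camk2b, Camk2d, Camk1, Camk1d, Camkk1 and Camkk2; the other members were not analysed for this). TGANTCA (AP-1), TGACGTCA (CRE) and CAGCTG (an E-box) occurred in no stretch of these members, and in 6.75%, 1.55% and 13.0% of all stretches. TGACG, the core that lies inside the CRE and is held by 17.8% of all stretches, occurred in Camk1 and in Camkk1, 185 and 166 bases before the start. A match or its lack describes only the letters of this window.

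In T3 against T0, 4 of the 9 members passed the test (adjusted p under 0.05 in edgeR's quasi-likelihood test over 31999 genes). Camk2b and Camkk2 were higher and Camk2g and Camk1 lower; of all genes tested 37.9% passed, 15% higher and 22.9% lower, so 4 of 9 is near that background. In T5 against T3 only Camk2b of the 9 members passed, in a comparison in which 2.17% of all genes did (1.28% higher and 0.888% lower). In T5 against T0 the same 4 members passed in the same directions, and 35.7% of all genes did (13.2% higher and 22.5% lower). These comparisons share libraries, so their values stand side by side and do not support each other. The median log2 fold change of the members was 0.04, 0.04 and 0.69 in T3 against T0, T5 against T3 and T5 against T0, and that of all tested genes 0.05, 0.05 and 0.18. Replicates did not overlap for 4, 4 and 6 of the 9 members in these comparisons, while 38.3%, 38.2% and 59.3% of all tested genes had replicates that did not overlap.

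**Figure D1:**
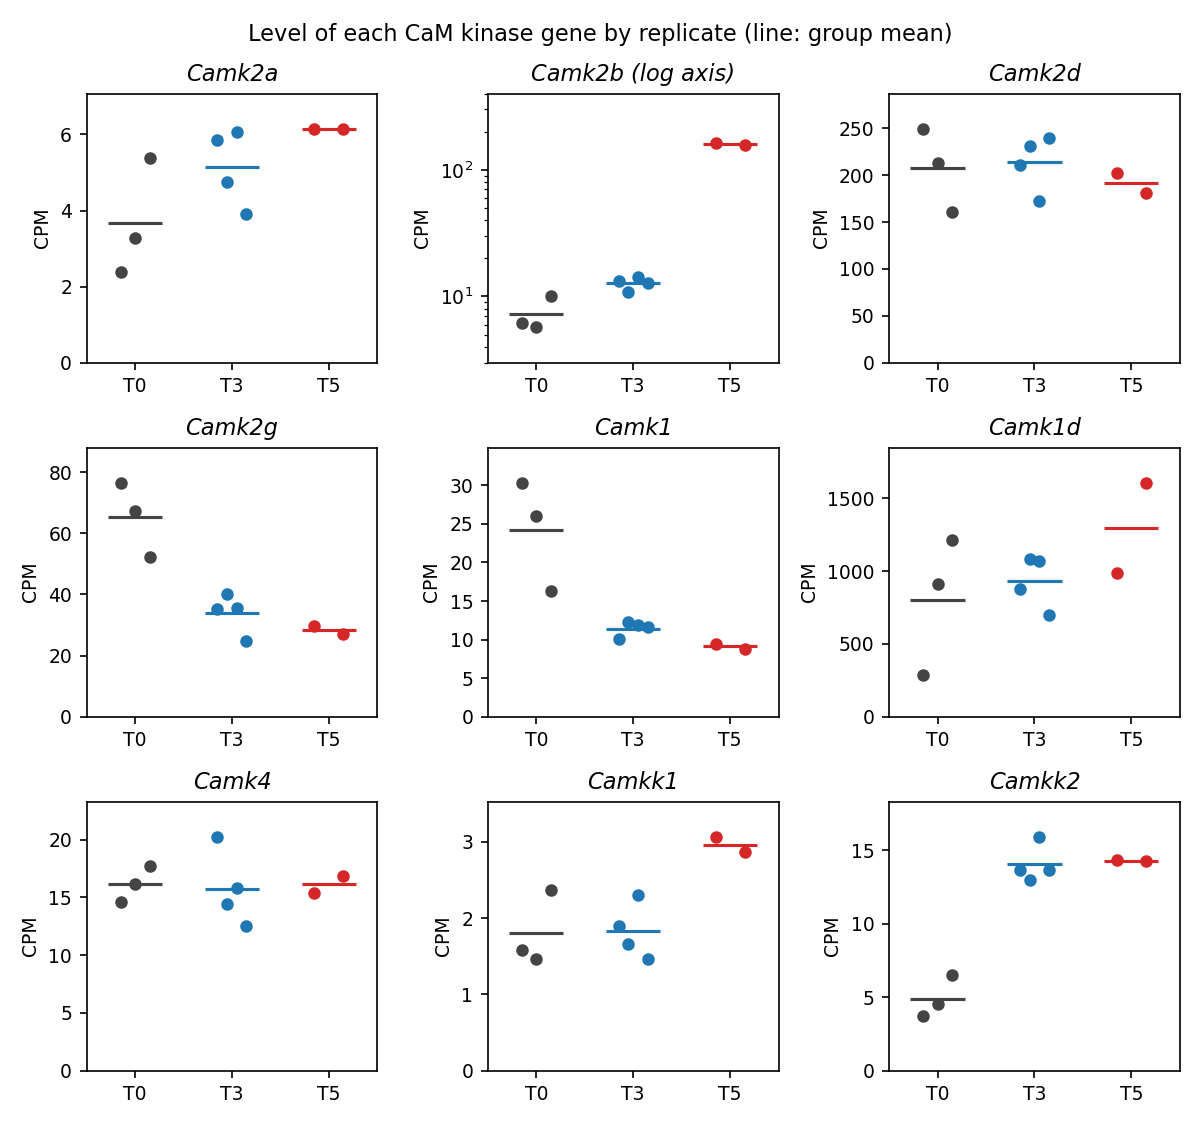
Level of each of the 9 CaM kinase genes in CPM (y axis; the Camk2b panel has a log axis, the others start at 0) in the 3 T0, 4 T3 and 2 T5 replicates (points), with the group mean as a line. Camk2b stands at 156 and 163 CPM in T5 and at or below 14.2 CPM in T0 and T3, Camkk2 separates T0 from the other groups, and Camk4 and Camk2d overlap throughout.

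Among the CaMKII subunits, Camk2b (ENSMUSG00000057897.14; GRCm38 chr11:5969644-6066362, minus strand, no overlapping gene) encodes the beta subunit, best known from brain, where it ties the holoenzyme to actin filaments. It measured 6.19, 5.77 and 10.02 CPM in the T0 replicates, 13.2, 10.9, 14.2 and 12.8 CPM in T3, and 163 and 156 CPM in T5. No replicate of one group reached into another: T0 was lowest, T3 above it and T5 far above both. It had a log2 fold change of 3.64 ± 0.24 (SE; 95% interval 3.15 to 4.13; adjusted p = 1.97e-09) in T5 against T3, the 23rd highest of the 31999 tested genes, and 4.44 ± 0.27 (adjusted p = 9.17e-11), a 21.7-fold difference, in T5 against T0. In T3 against T0 it was 0.80 ± 0.22 (1.74-fold; adjusted p = 0.00504). Without T0 replicate 2 that smaller rise no longer passed, at a log2 fold change of 0.65 and an adjusted p of 0.0558. Over all settings tried the log2 fold change was 0.65 to 1.10 and the adjusted p 3.53e-05 to 0.0558.

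The T5 level of Camk2b was high in each of the 4 libraries. With the libraries kept apart, replicate A comprised 204.7 and 123 CPM and replicate B 122 and 200.05 CPM, from 20575, 10887, 8996 and 11853 counts. The 7 T0 and T3 libraries had 286 to 924 counts. Libraries of the same letter thus differed more than the sums A and B did. Camk2d showed a like spread in the same libraries, 259.7 and 146 CPM in A and 168 and 199.98 CPM in B.

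The genes around Camk2b did not share its T5 level. Of 25 other tested protein-coding genes within 500 kb, none passed the test in T5 against T3, with log2 fold changes from -0.80 to 0.81; edgeR gave 6 of them an unadjusted p under 0.05, and DESeq2 called 0. The nearest, Ykt6, a SNARE of vesicle fusion that starts or ends 1.86 kb away, had -0.18 (adjusted p = 0.764).

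**Figure D2:**
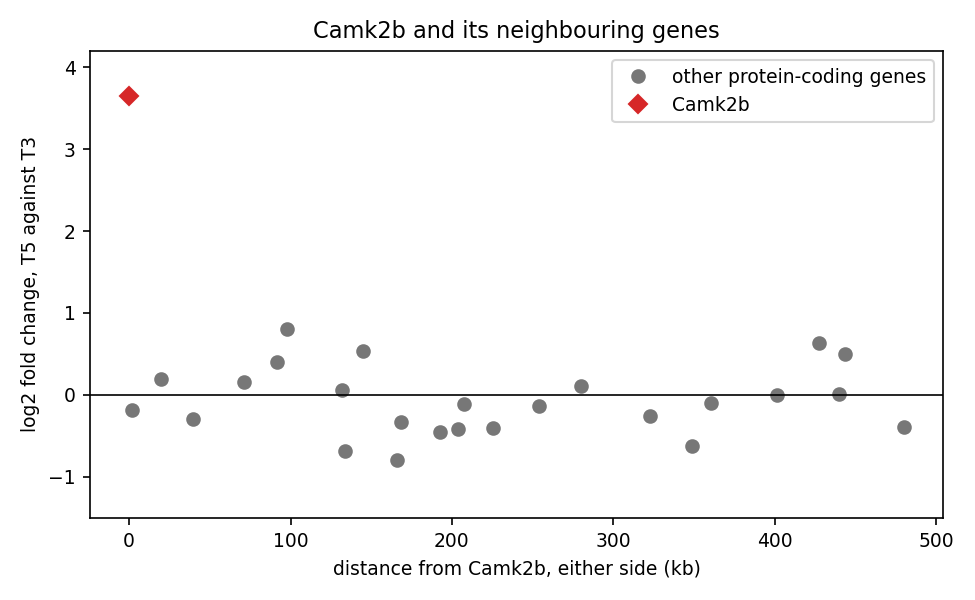
Log2 fold change in T5 against T3 (y axis) of Camk2b (red diamond) and of the 25 tested protein-coding genes within 500 kb (grey points), by their distance from Camk2b on either side in kb (x axis). Camk2b lies at 3.64 and the other genes between -0.80 and 0.81.

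Camk2d (ENSMUSG00000053819.16; chr3:126596302-126846326, plus strand), the gene of the delta subunit, found in most tissues and the main CaMKII of the heart, has 8 small predicted genes inside its introns. It measured 249.7, 213 and 161 CPM in T0, 211, 231, 172 and 239.9 CPM in T3, and 202 and 181 CPM in T5. The groups overlapped in each comparison. Its log2 fold change was 0.04 ± 0.21 (95% interval -0.40 to 0.48; adjusted p = 0.905) in T3 against T0, -0.16 ± 0.24 (-0.66 to 0.34; adjusted p = 0.795) in T5 against T3, and -0.12 ± 0.25 (-0.64 to 0.41; adjusted p = 0.739) in T5 against T0.

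Camk2g (ENSMUSG00000021820.16; chr14:20734875-20794088, minus strand, no overlapping gene), the gene of the gamma subunit, likewise found in most tissues, went the other way from Camk2b. It measured 76.6, 67.2 and 52.3 CPM in T0, 35.3, 40.0, 35.4 and 24.7 CPM in T3, and 29.6 and 26.9 CPM in T5. Each T0 replicate was above each T3 and T5 replicate, whereas T3 and T5 overlapped. The log2 fold change was -0.95 ± 0.21 (adjusted p = 0.000698) in T3 against T0 and -1.21 ± 0.26 (2.31-fold lower; adjusted p = 0.000700) in T5 against T0. In T5 against T3 it was -0.26 ± 0.24 (adjusted p = 0.670). With upper quartile scaling, which moved the median of all genes in T3 against T0 from 0.05 to 0.32, the first of these was -0.63 and still passed.

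Camk2a (ENSMUSG00000024617.16; chr18:60925618-60988152, plus strand), the gene of the alpha subunit, abundant in forebrain neurons and in muscle also the source of the anchoring protein alphaKAP, was at low levels. It measured 2.38, 3.28 and 5.38 CPM in T0, 5.85, 4.76, 6.06 and 3.90 CPM in T3, and 6.14 and 6.15 CPM in T5. T0 overlapped T3, and the T5 replicates lay just above both. No comparison passed: log2 0.47 ± 0.25 (adjusted p = 0.159) in T3 against T0, 0.26 ± 0.28 (adjusted p = 0.712) in T5 against T3 and 0.73 ± 0.29 (adjusted p = 0.0560) in T5 against T0. The first and last of these passed without T0 replicate 3, where the log2 fold changes were 0.86 (adjusted p = 0.00447; 0.00447 to 0.519 over all settings) and 1.117 (adjusted p = 0.00150; 0.00150 to 0.194 over all settings). T5 against T0 also passed with no low-count filter (adjusted p = 0.0381), with a filter of at least 1 CPM in at least 2 replicates (adjusted p = 0.0441) and with the T5 libraries kept apart (adjusted p = 0.0200).

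The 4 CaMKII genes together held 284 ± 53.4 CPM in T0, 266 ± 26.6 in T3 and 386 ± 21.8 in T5, and their make-up differed more than their sum. As shares of the summed CPM per kb of exon, Camk2g held 49.1 ± 1.23% and Camk2d 44.3 ± 2.31% in T0 (n = 3), with 4.08 ± 2.02% for Camk2b and 2.54 ± 1.49% for Camk2a. In T3 (n = 4) Camk2d held 56.2 ± 6.46%, Camk2g 31.3 ± 5.39%, Camk2b 8.37 ± 1.45% and Camk2a 4.11 ± 0.952%. In T5 (n = 2) Camk2b held 55.99 ± 0.927%, Camk2d 27.3 ± 0.790%, Camk2g 14.1 ± 0.268% and Camk2a 2.64 ± 0.130%. Per kb of exon, Camk2b thus held the smallest shares but for Camk2a in T0 and T3 and the largest in T5. Its T5 replicates stood at 55.3% and 56.6% against 2.82 to 10.03% in the 7 others. The sum per kb of exon was 20.7 ± 3.47 in T0, 16.9 ± 1.18 in T3 and 31.3 ± 1.51 in T5. Scaled by the length of the gene body, introns included, the T5 share of Camk2b was 55.2 ± 0.896%. In CPM without scaling by length, Camk2d stayed the largest in T5, with 50.4% and 48.9% against 40.7% and 42.1% for Camk2b. These are shares of RNA, not of subunits in the protein.

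**Figure D3:**
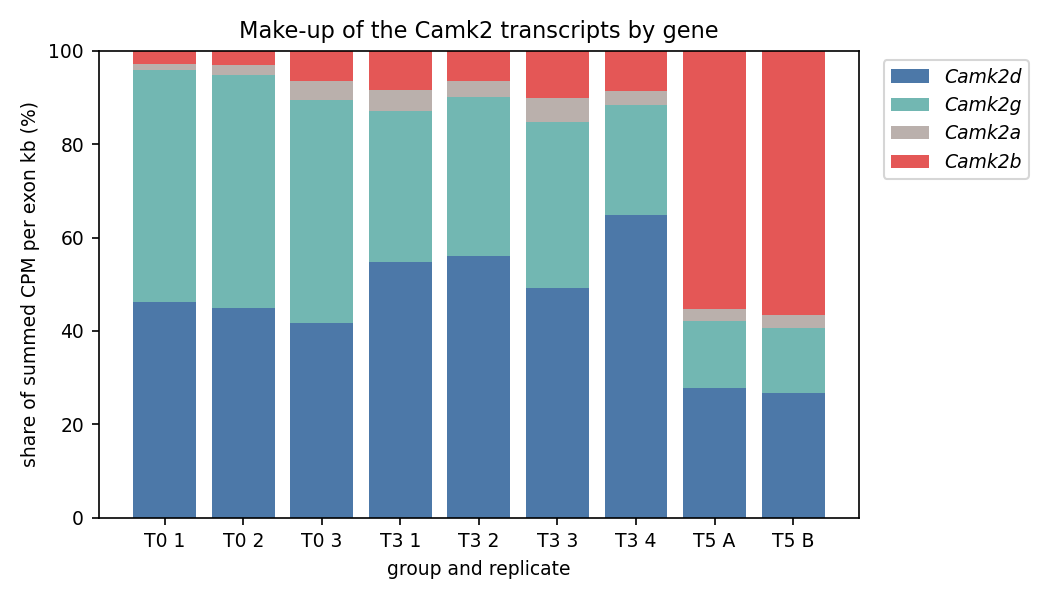
Make-up of the CaMKII transcripts in each replicate, as the share of each gene in the summed CPM per kb of exon (y axis, %), stacked from Camk2d at the bottom to Camk2b at the top. Camk2b fills 55.3% and 56.6% of the T5 bars and at most 10.03% of the T0 and T3 bars.

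Among the upstream kinases, Camkk2 (ENSMUSG00000029471.13; chr5:122731170-122779409, minus strand, no overlapping gene) encodes CaM kinase kinase 2, which phosphorylates CaMKI and CaMKIV and also AMP-activated protein kinase, the cell's energy sensor. It measured 3.70, 4.52 and 6.51 CPM in T0, 13.7, 13.0, 15.9 and 13.7 CPM in T3, and 14.4 and 14.3 CPM in T5. Each isolated replicate was above each T0 replicate, and the T5 values lay within the T3 range. It had a log2 fold change of 1.52 ± 0.22 (adjusted p = 6.91e-06) in T3 against T0 and 1.54 ± 0.25 (2.90-fold; adjusted p = 3.66e-05) in T5 against T0. In T5 against T3 it was 0.02 ± 0.24, with a 95% interval of -0.47 to 0.51 (adjusted p = 0.974).

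Camkk1 (ENSMUSG00000020785.17; chr11:73019008-73042073, plus strand, no overlapping gene), the second kinase of this kind, was the member with the lowest CPM. It measured 1.58, 1.46 and 2.37 CPM in T0, 1.89, 1.66, 2.30 and 1.46 CPM in T3, and 3.07 and 2.86 CPM in T5. T0 and T3 overlapped, and the T5 replicates were above both. Its log2 fold change was 0.01 ± 0.25 (adjusted p = 0.975) in T3 against T0, 0.70 ± 0.27 (95% interval 0.14 to 1.25; adjusted p = 0.234) in T5 against T3 and 0.71 ± 0.28 (adjusted p = 0.0565) in T5 against T0. None passed in this fit. Without T0 replicate 3 both T5 comparisons did, at 0.70 (adjusted p = 0.0480; 0.0436 to 0.998 over all settings) and 0.97 (adjusted p = 0.00444; 0.00444 to 0.238 over all settings). T5 against T3 also passed with only these groups in the fit (adjusted p = 0.0437), and T5 against T0 with upper quartile scaling (adjusted p = 0.0323) and with the filter of at least 1 CPM (adjusted p = 0.0365); both passed with the T5 libraries kept apart (adjusted p = 0.0436 and 0.0184).

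**Figure D4:**
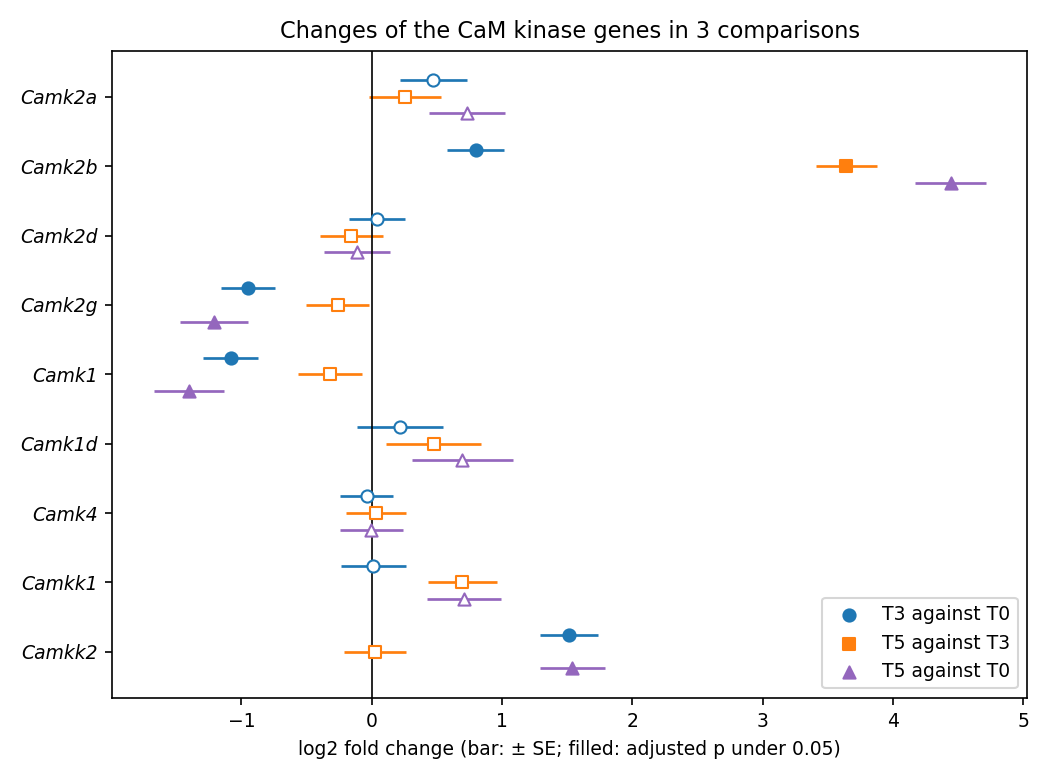
Log2 fold change (x axis) with its SE (bar) of each CaM kinase gene in T3 against T0 (circles), T5 against T3 (squares) and T5 against T0 (triangles); filled marks have an adjusted p under 0.05. Camk2b passes in all 3 comparisons, and Camk2g, Camk1 and Camkk2 pass in those against T0 only.

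Of the kinases they act on, Camk1 (ENSMUSG00000030272.15; chr6:113334124-113343984, minus strand) encodes CaMKI alpha, a cytosolic kinase of most tissues. It measured 30.4, 26.0 and 16.3 CPM in T0, 10.01, 12.2, 11.9 and 11.6 CPM in T3, and 9.48 and 8.82 CPM in T5. No groups overlapped, with T0 highest and T5 lowest. The log2 fold change was -1.08 ± 0.21 (adjusted p = 0.000230) in T3 against T0, -0.32 ± 0.25 (adjusted p = 0.616) in T5 against T3 and -1.40 ± 0.27 (2.65-fold lower; adjusted p = 0.000211) in T5 against T0. Its exons overlap those of Ogg1, a DNA repair enzyme on the other strand, which had -0.95 ± 0.24 (adjusted p = 0.00221) in T3 against T0, so the reads of this pair cannot be fully told apart; Ogg1 had 2998 counts over all libraries.

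Camk1d (ENSMUSG00000039145.16; chr2:5293457-5714515, minus strand), the gene of CaMKI delta, had the widest spread of the 9 members in T0 and T5. It measured 284, 910.3 and 1211 CPM in T0, 879.7, 1080.2, 1066 and 701 CPM in T3, and 986 and 1608 CPM in T5. The groups overlapped in each comparison, and T0 alone spanned from 284 to 1211 CPM. It had a log2 fold change of 0.22 ± 0.33 (95% interval -0.46 to 0.90; adjusted p = 0.662) in T3 against T0, 0.48 ± 0.37 (-0.28 to 1.23; adjusted p = 0.616) in T5 against T3 and 0.69 ± 0.39 (adjusted p = 0.171) in T5 against T0. Without T0 replicate 3 the last of these was 1.121 (adjusted p = 0.0363; 0.00345 to 0.702 over all settings, the lowest in a setting other than this one).

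Camk1d moved with the share of counts on ribosomal RNA genes. That share was 4.14%, 12.5% and 18.3% in the T0 libraries, where Camk1d was at 291, 926 and 1241 CPM, and 12.0%, 12.9%, 13.5% and 20.3% in the T5 libraries, where it was at 961, 1058, 1213 and 2117 CPM. In T3 it was 9.61%, 11.0%, 12.6% and 6.45%, with 891, 1072, 1063 and 699 CPM. The order of the libraries was the same for both measures in T0 and in T5, and in T3 only the libraries at 11.0% and 12.6% changed places. This order of the T0 libraries was not limited to Camk1d: Camk2a, Camkk2 and Camk4 also rose along it, and Camk2d, Camk2g and Camk1 fell. Camk2b and Camkk1 did neither. The part of ribosomal RNA counts in the values of Camk1d and of these members was not tested.

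**Figure D5:**
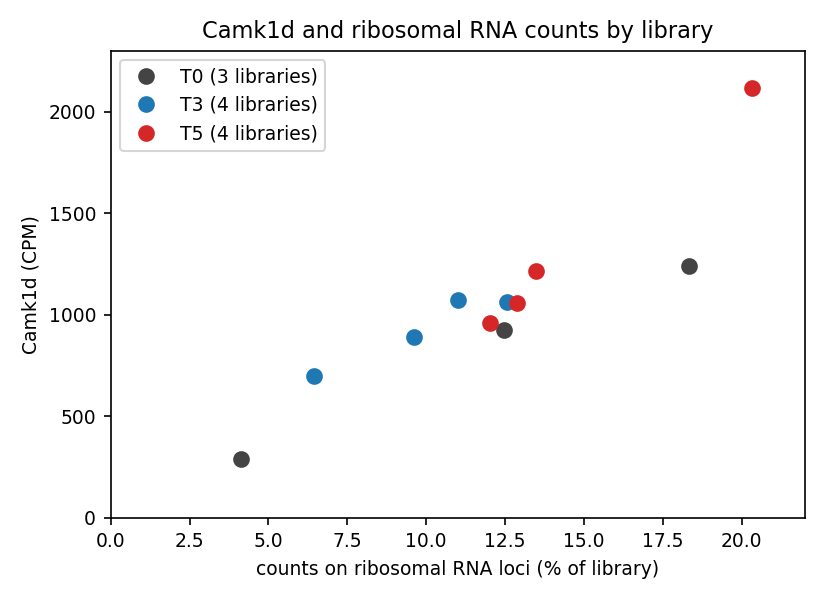
Camk1d level in CPM (y axis) by the share of a library's counts on ribosomal RNA genes in % (x axis), for the 3 T0, 4 T3 and 4 T5 libraries kept apart. The library lowest in both measures is a T0 library (4.14%, 291 CPM) and the highest in both a T5 library (20.3%, 2117 CPM).

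Camk4 (ENSMUSG00000038128.6; chr18:32934931-33191228, plus strand) encodes CaMKIV, a nuclear kinase of neurons and T cells that phosphorylates CREB. It measured 14.6, 16.2 and 17.7 CPM in T0, 20.3, 14.4, 15.8 and 12.5 CPM in T3, and 15.4 and 16.9 CPM in T5. All groups overlapped. Its log2 fold change was -0.04 ± 0.20 (95% interval -0.46 to 0.39; adjusted p = 0.909) in T3 against T0 and 0.04 ± 0.23 (-0.44 to 0.51; adjusted p = 0.956) in T5 against T3. Its exons overlap the antisense gene 2310026I22Rik, so the strand of these reads is uncertain.

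Ordered by CPM per kb of exon, the T0 levels were 108 ± 63.6 for Camk1d, 10.2 ± 1.91 for Camk2g, 9.23 ± 1.99 for Camk2d, 4.96 ± 0.476 for Camk4, 4.05 ± 1.2003 for Camk1, 0.803 ± 0.257 for Camk2b, 0.493 ± 0.207 for Camk2a, 0.484 ± 0.133 for Camkk1 and 0.449 ± 0.132 for Camkk2. Camk2g and Camk2d, Camk4 and Camk1, and the last 3 differed by less than their spread. In T3 Camk2d (9.50 ± 1.34) led Camk2g (5.29 ± 1.011), and Camkk2 (1.29 ± 0.117) stood next to Camk2b (1.4002 ± 0.154). In T5 the order of the upper ranks was Camk1d (175 ± 59.2), Camk2b (17.5 ± 0.556), Camk2d (8.53 ± 0.659), Camk4 (4.95 ± 0.319) and Camk2g (4.41 ± 0.297). Since the counts hold intronic reads, exon length overstates genes with long introns. Scaled by the gene body, Camk1 led in T0 (2.46 ± 0.727 CPM per kb), ahead of Camk1d (1.90 ± 1.123), and Camk2b was second to Camk1d in T5 (1.65 ± 0.0525 against 3.08 ± 1.04).

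On the gene-body scale, receptor and defensin genes taken as silent gave a CPM per kb of 0.0162 to 0.0250 in the T0 replicates. They were picked by symbol, and their silence in these cells was not tested. T3 had 0.0214 to 0.0258, and both T5 replicates had 0.0259 or 0.0260. Camk4 stood at 0.0630 ± 0.00606 CPM per kb in T0 and Camk2a at 0.0589 ± 0.0247, or 2.52 and 2.35 times the highest of these values. Per kb of exon, where the silent genes reached 0.0608 in T0, Camk4 stood at 81.5 times and Camk2a at 8.11 times that value, beside 7.95 times for Camkk1 and 7.39 times for Camkk2, so the distance from background depends on the length used. Camk2b stood at 0.0758 ± 0.0242 in T0 and 0.132 ± 0.0145 in T3. None of the 50-base words in the transcripts of a member occurred in a transcript of another member, so exonic reads of 65 bases can be placed in 1 of the CaMKII genes only. In bulk samples such as these, fewer cells that express a gene and less of its RNA per cell cannot be told apart.

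The genes whose pattern over the 9 replicates was most like that of a member were found among 6749 candidate genes. The measure was the root mean square difference of centred log2 CPM. It was largest for Camk2b, which also had the largest SD of the members. For Camk4 the nearest gene lay at 0.12 against an SD of 0.20, so the differences alone do not rank the matches. Nearest to Camk2b were Adamts2, a procollagen protease, at 0.59, and Dnajb1, an HSP40 co-chaperone, at 0.67, against 1.82 for the SD of Camk2b itself. Nearest to Camkk2 were Xylt1 and Tex14 (0.16 each), to Camk2g Ints9 (0.15) and Zfp64 (0.15), and to Camk1 Hectd4 (0.06) and Ap1ar (0.07). Camk1d lay nearest to Mir3068 (0.15) and Nop56 (0.20), Camkk1 to Ptpre (0.11) and Ctnna2 (0.14), and Camk4 to Pik3c2g and Fmn2 (0.12 each). Camk2a lay nearest to Slit3 (0.09) and Pdzrn3 (0.11), and Camk2d to Cul5 (0.05) and Bmt2 (0.06).

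Calm2 and Calm3, genes of the calmodulin that switches the kinases on, moved in opposite directions in T3 against T0. Calm2 rose from 53.6 ± 8.66 to 128 ± 9.47 CPM (log2 1.26 ± 0.20; adjusted p = 2.07e-05), while Calm3 fell from 49.04 ± 11.6 to 13.6 ± 2.04 CPM (-1.85 ± 0.21; adjusted p = 2.05e-07). Of 13 tested calmodulin genes and calmodulin-binding regulators, 4 rose and 5 fell in T3 against T0 (median log2 fold change 0.22, against 0.05 for all genes). All genes tested gave 15% higher and 22.9% lower in this comparison, the background for this list and for those that follow. Iqgap1, a scaffold that binds calmodulin and actin, rose from 134 ± 18.4 to 599.9 ± 71.5 CPM (2.17 ± 0.22; adjusted p = 5.67e-08); Strn3, a calmodulin-binding phosphatase subunit, had 235 ± 47.9 and 289.6 ± 39.9 CPM and did not pass. None of the 13 passed in T5 against T3; edgeR gave 2 an unadjusted p under 0.05, and DESeq2 called 0.

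Of 16 other kinases driven by calmodulin and CaMKII inhibitors, 1 rose and 5 fell in T3 against T0 (median -0.18), close to the 37.9% of all genes that passed. Eef2k, which phosphorylates elongation factor 2 when calcium rises and slows translation, fell from 51.1 ± 11.7 to 10.4 ± 1.23 CPM (-2.30 ± 0.21; adjusted p = 1.1e-08). Mylk, the myosin light chain kinase of smooth muscle and other cells, fell from 63.1 ± 11.2 to 38.4 ± 2.72 CPM (-0.71 ± 0.19; adjusted p = 0.00430), and Phkg1, a catalytic subunit of phosphorylase kinase, rose from 19.5 ± 3.88 to 28.5 ± 5.48 CPM (0.55 ± 0.21; adjusted p = 0.0445). Cask and Dapk1 did not pass, at 176 ± 30.4 and 153 ± 14.1 CPM and at 27.6 ± 1.498 and 27.8 ± 1.69 CPM. In T5 against T3, 2 of the 16 rose and 0 fell: Mylk2, the light chain kinase of skeletal muscle (1.13 ± 0.23; adjusted p = 0.00713), and Dapk2, a death-associated kinase (1.05 ± 0.23; adjusted p = 0.0125), both named after their values were seen. Mylk2 was at 23.7 ± 6.39, 8.39 ± 0.765 and 18.3 ± 1.04 CPM in T0, T3 and T5. Dapk2 was at 16.5 ± 4.39, 10.3 ± 1.41 and 21.5 ± 0.0627 CPM in the same order. The inhibitor gene Camk2n1 was at 19.1 ± 5.45, 20.4 ± 1.24 and 19.2 ± 0.293 CPM in T0, T3 and T5.

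Calcineurin, the phosphatase that calmodulin activates, and its NFAT factors gave 4 genes higher and 5 lower of 14 in T3 against T0 (median -0.15). Ppp3ca, a catalytic subunit, rose from 265 ± 66.7 to 904 ± 189 CPM (1.77 ± 0.25; adjusted p = 3.71e-06) and Nfatc1, a calcineurin-controlled transcription factor, from 69.5 ± 18.5 to 242 ± 26.0 CPM (1.80 ± 0.22; adjusted p = 7.62e-07). Rcan3, a calcineurin regulator, fell from 11.8 ± 1.90 to 2.66 ± 0.604 CPM (-2.15 ± 0.22; adjusted p = 6e-08), and Cabin1, a calcineurin-binding repressor, had 112 ± 24.5 and 99.9 ± 10.3 CPM and did not pass. Rcan2, another regulator, fell from 349 ± 94.7 to 107 ± 31.5 CPM (-1.71 ± 0.25; adjusted p = 7.04e-06) and was the only gene of the list to pass in T5 against T3, where it rose to 272 ± 16.0 CPM (1.35 ± 0.27; adjusted p = 0.00671).

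Targets of CaM kinases were split, with 6 of 22 higher and 6 lower in T3 against T0 (median 0.01). Mef2a rose from 118 ± 24.8 to 253 ± 51.8 CPM (1.10 ± 0.23; adjusted p = 0.000403) and Mef2d from 140.3 ± 47.5 to 248 ± 27.1 CPM (0.82 ± 0.23; adjusted p = 0.00679); both encode MEF2 factors, as does Mef2b, which fell from 4.50 ± 1.61 to 1.79 ± 0.132 CPM (-1.32 ± 0.24; adjusted p = 0.000101). Crtc3, a CREB coactivator, fell from 294 ± 78.9 to 162 ± 19.3 CPM (-0.86 ± 0.21; adjusted p = 0.00237), and Prkab2, a subunit of AMP-activated protein kinase, rose from 40.5 ± 10.8 to 128 ± 25.6 CPM (1.67 ± 0.23; adjusted p = 3.9e-06). Hdac4, a class II histone deacetylase that CaMKII phosphorylates, had 459.96 ± 192 CPM in T0, 543 ± 37.0 in T3 and 305 ± 4.99 in T5 and did not pass in any comparison. None of the 22 passed in T5 against T3; edgeR gave 4 an unadjusted p under 0.05, and DESeq2 called 0.

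Genes of calcium release, entry and removal gave 3 higher and 10 lower of 25 in T3 against T0 (median -0.11), beside 15% higher and 22.9% lower of all genes, and the 3 that rose were the calcium pumps Atp2b1 and Atp2a2 and the channel Piezo1. Atp2b1, the plasma membrane pump, rose from 124 ± 24.7 to 1067 ± 164 CPM (3.10 ± 0.25; adjusted p = 2.32e-09). Atp2a2, which pumps calcium into the reticulum, went up from 128 ± 32.5 to 421 ± 59.3 CPM (1.72 ± 0.23; adjusted p = 2.32e-06), and Piezo1, a channel opened by membrane stretch, from 149 ± 51.1 to 404 ± 38.4 CPM (1.44 ± 0.24; adjusted p = 3.08e-05). Itpr2, an IP3 receptor that releases stored calcium, fell from 462 ± 115 to 199 ± 16.2 CPM (-1.21 ± 0.21; adjusted p = 5.64e-05), and Orai2, a channel of store-operated entry, from 22.6 ± 0.863 to 7.67 ± 1.56 CPM (-1.56 ± 0.20; adjusted p = 1.45e-06). In T5 against T3 1 of the 25 rose and 0 fell: Atp2a3, another reticulum pump, went from 6.46 ± 1.42 to 26.2 ± 1.46 CPM (2.02 ± 0.23; adjusted p = 1.26e-05), named after its value was seen. In T5 against T0 the numbers higher and lower were 1 and 2 for the other kinases, 2 and 4 for calmodulin and its regulators, 4 and 4 for calcineurin and NFAT, 4 and 7 for the targets and 4 and 10 for calcium transport, beside 13.2% and 22.5% of all genes. Iqgap1, Strn3, Eef2k, Mylk, Phkg1, Cask, Ppp3ca, Rcan2, Rcan3, Hdac4, Mef2a, Mef2b, Mef2d, Crtc3, Prkab2, Atp2a2, Piezo1 and Itpr2 overlap another gene, and their values are uncertain to that extent.

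Markers of other cells also differed between the groups, and their part in the values of the members was not tested. As background, 15% of all genes tested were higher and 22.9% lower in T3 against T0. Those shares were 1.28% and 0.888% in T5 against T3, and 13.2% and 22.5% in T5 against T0. Of 16 myofibre markers, 11 rose and 2 fell in T3 against T0, and 0 rose and 6 fell in T5 against T3. Their summed level was 152 to 170.1 CPM, 177 to 249 CPM and 157 to 159.7 CPM in T0, T3 and T5. Of 10 neuron markers, whose cells express Camk2a, Camk2b and Camk4, 2 rose and 1 fell in T3 against T0, and none passed in T5 against T3 (1 had an unadjusted p under 0.05 in edgeR, and DESeq2 called 1); their sum was 572 to 686 CPM, 940.2 to 1305 CPM and 707 to 739.5 CPM in the same order, most of it Map2. Map2 went from 1009 ± 165 CPM in T3 to 632 ± 20.4 CPM in T5, while the other 9 neuron markers had higher means in T5 than in T3, and the median log2 fold change of the list was 0.23. In T3 against T0 the numbers higher and lower were 7 and 0 of 15 endothelial, 3 and 5 of 15 fibro-adipogenic progenitor and fibroblast, 5 and 1 of 15 monocyte and macrophage, 2 and 4 of 12 pericyte and smooth muscle, 2 and 2 of 10 Schwann cell, 1 and 0 of 11 lymphocyte, 0 and 0 of 8 neutrophil (1 with an unadjusted p under 0.05, and 1 called by DESeq2), 0 and 1 of 7 erythroid and 4 and 8 of 15 satellite cell markers. In T5 against T3 the only marker of another cell type that rose was 1 of the 7 erythroid ones; besides the myofibre markers, 5 endothelial markers fell (list median -0.62), as did 1 each of the fibroblast, pericyte and Schwann cell lists and 4 satellite cell markers. In T5 against T0 the numbers higher and lower were 4 and 2 for myofibre, 1 and 0 for neuron, 0 and 1 for endothelial, 2 and 4 for fibroblast, 5 and 0 for monocyte, 2 and 4 for pericyte, 0 and 3 for Schwann cell, 1 and 1 for erythroid and 3 and 11 for satellite cell markers. Lymphocyte and neutrophil markers had 0 and 0 there, with 0 at an unadjusted p under 0.05 in edgeR and 0 called by DESeq2. Some markers overlap another gene, among them Cx3cr1, Tnnc2, Egfl7 and Alas2, and their values are uncertain to that extent. No marker list was at 0 in any replicate. The genes taken as silent were above 0 too, so a level above 0 does not show that such cells were present.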

How the data were processed

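A table of raw read counts for 48709 genes and 11 libraries was deposited by the authors. Of tools, the submitters' processing notes list DESeq2 1.12.3, R 3.3.1, featureCounts 1.4.6-p3 and STAR 2.5.0a, and as build GRCm38; the annotation release and the strand setting are not given in the sources used here. Per the labels' protocols, RNA came from fixed cells through a kit for formalin-fixed tissue and was sequenced as single 65-base reads of directional total RNA libraries. Symbols and coordinates come from GENCODE vM21 (GRCm38), which held 48349 of the gene IDs and lacked 360. Columns were assigned to groups by name; since the sample titles carry letters and the columns of T0 and T3 numbers, replicates are named by column number. T5 libraries of the same letter were added up.

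The test was the two-sided quasi-likelihood F test of edgeR 4.0.16 in R 4.3.3, with TMM scaling, genes kept by filterByExpr, 1 fit over the 3 groups, no covariate, and Benjamini-Hochberg adjustment over 31999 genes. SE values were obtained from the log2 fold change and the square root of F. CPM is scaled to TMM-corrected library sizes, separately for values given per T5 library. The precision of each value follows from 49078859 to 102347035 counts per library and from 2 to 4 replicates per group. Exact intervals on the counts are not given, since PCR reads without molecular identifiers are not independent molecules. The script was tested on simulated data.

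The members, the 5 pathway lists (other CaM-dependent kinases, calmodulin and calmodulin-binding regulators, calcineurin and NFAT, CaM kinase targets, and calcium release, entry and removal), the 11 marker lists and the tests were chosen with earlier results of these data known. The genes named are the 9 members, the 4 with the highest CPM in each pathway list, the called gene with the highest and the lowest log2 fold change in T3 against T0, and the 2 genes most like each member among genes whose log2 CPM averaged 4 or more. A gene that this rule names is not reported here. The ribosomal RNA share counts genes of that type and Gm42418, Gm26917 and AY036118. The families taken as silent are olfactory, vomeronasal and taste receptors and defensins. There were 17 alternatives: other scaling, DESeq2 1.42.0, other filters, fewer groups, T5 libraries kept apart, a replicate block, and each replicate left out in turn.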

Additional observations from a re-analysis of the deposited data

How the results depend on the processing

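Over 17 alternatives for 9 members and 3 comparisons, 441 fold changes kept their direction, or their side of the threshold where neither setting passed, 17 passed where they had not, 1 (Camk2b in T3 against T0 without T0 replicate 2) no longer passed, and 0 called values reversed. Camk2b in T5 against T3 stayed between 3.53 and 3.81 on the log2 scale, with adjusted p-values up to 7.73e-05. The number of members called in T5 against T3 was 1, and 2 with only the 2 groups compared and with the 4 T5 libraries kept apart, Camkk1 being added at adjusted p-values of 0.0437 and 0.0436. With each replicate left out it was 1 to 2, in T3 against T0 3 to 5, against 4, and in T5 against T0 4 to 7, against 4, the 7 without T0 replicate 3. With a replicate block, 5, 1 and 7 members were called in T3 against T0, T5 against T3 and T5 against T0; it added Camk2a in the first (adjusted p = 0.0403) and Camk2a (0.00759), Camk1d (0.00345) and Camkk1 (0.0126) in the last. Whether the numbers pair the samples is not given in the sources used here. The deviations of same-numbered T0 and T3 replicates correlated at -0.17, 0.21 and 0.22. Not every replicate correlated best with its own number (T0 replicate 1 did so with T3 replicate 4, at 0.31). So few replicates cannot decide whether the samples are paired. Over all genes, T5 against T3 gave 695 calls, but 1023 with DESeq2, 1213 with no filter, 2993 with only the 2 groups compared, 2122 with the T5 libraries apart and 184 to 2503 with each replicate left out (184 and 224 without T5 replicate B and A, 1439 and 2503 without T0 replicate 1 and 3, and 457 without T3 replicate 4). T5 against T0 gave 11413 calls, but 7511, 7392 and 17556 without T5 replicate A, T5 replicate B and T0 replicate 3. Upper quartile scaling moved the median of all genes from 0.05 to 0.32 in T3 against T0 and from 0.18 to 0.51 in T5 against T0, and the share of calls that were lower from 60.4% to 44.7% and from 62.9% to 44.1%; in T5 against T3 the lower share was 40.9%, but 50.6% with that scaling and 67.3% with DESeq2. The causes of these shifts were not tested. With 2 T5 replicates, changes of the low genes Camkk1 and Camk2a near the threshold were not resolved.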
